A study of Homo sapiens with 6 samples.

Results

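The genes described here encode the phosphofructokinases and the enzymes that make and remove fructose-2,6-bisphosphate. They are the 3 subunits of 6-phosphofructo-1-kinase (PFKM, PFKL and PFKP), the 4 isoenzymes of 6-phosphofructo-2-kinase/fructose-2,6-bisphosphatase (PFKFB1 to PFKFB4), TIGAR, and the fructose-1,6-bisphosphatases FBP1 and FBP2. These 10 genes were chosen by symbol. All 10 were among the 38557 genes listed in the count files, and 9 of them passed the filter on low counts that left 16107 genes for testing, the exception being FBP1. RNA was sequenced from cardiomyocytes, labelled WT, that had been differentiated from the established human pluripotent stem cell line WTC11. The cells had been kept in RPMI plus B27, where B27 is a serum-free supplement, or in DMEM plus fatty acids, and these media are called RPMI and DMEM from here on. There were 3 libraries per medium, labelled as biological replicates 1 to 3, and every culture came from that single line. Media recipes and exposure times are not in the labels, so the basal medium, the supplement and the fatty acids cannot be told apart here.

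Phosphofructokinase phosphorylates fructose-6-phosphate and is the committed step of glycolysis. Its strongest allosteric activator is fructose-2,6-bisphosphate, a signalling metabolite made by the kinase domain and removed by the bisphosphatase domain of the bifunctional PFKFB enzymes. In heart muscle PFKFB2 is the classical isoenzyme, activated through phosphorylation by insulin-stimulated and AMP-activated protein kinases, while PFKFB3 and PFKFB4 are known as isoenzymes induced by low oxygen. TIGAR, induced by p53, lowers fructose-2,6-bisphosphate, and the fructose-1,6-bisphosphatases run the phosphofructokinase step in the direction of gluconeogenesis.

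Libraries held 23232324 to 31035389 gene counts. By edgeR's quasi-likelihood test, 1.36% of all genes tested (219 of 16107) passed a Benjamini-Hochberg adjusted p of 0.05, and 4.78% (770) passed when the replicate number entered the fit as a block. The 12 cardiomyocyte markers were all detected, with summed levels of 29407.0 to 34640.0 CPM (counts relative to the TMM-scaled library size) in RPMI and 22509.1 to 32608.6 CPM in DMEM, and 0 of the 12 passed (3 had an unadjusted p under 0.05, as did 17.7% of all genes, and DESeq2 called 3). With the block 2 of the 12 passed, both lower, MYH7 (adjusted p 0.0359) and ACTN2 (adjusted p 0.0494, edgeR). The list moved in both directions, with 5 positive and 7 negative log2 fold changes (median -0.08). DESeq2, which called 7.52% of all genes, called 1 marker as higher and 2 as lower. MYH6 was higher in DMEM without overlap (log2 fold change 0.86 ± 0.27 (SE), adjusted p 0.166, and 0.0797 with the block, edgeR). The 12 fibroblast and stromal markers differed more, at 7340.4 to 15319.6 CPM in RPMI and 1165.3 to 2875.6 CPM in DMEM, with 6 of 12 passing, all lower, or 2 of 12 without RPMI replicate 1 and 10 of 12, all lower, with the block. The smooth muscle markers (8) summed to 2240.3 to 2821.6 CPM in RPMI and 655.4 to 1549.3 CPM in DMEM. The epicardial markers (8) summed to 1974.2 to 2398.9 and 884.8 to 1098.1 CPM. That epicardial sum was mostly keratins, KRT8 (538.4 to 1479.7 CPM over the libraries), KRT18 (256.7 to 751.6 CPM) and KRT19 (41.6 to 280.9 CPM). TBX18 reached at most 7.72 CPM in a library, BNC1 4.66, ALDH1A2 0.942, WT1 0.867 and UPK3B 0.373 CPM. The epicardial sum is thus a level of keratin transcripts, and the amount of epicardial cells was not tested. In these bulk libraries, fewer cells of a type and less RNA per cell cannot be told apart.

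PFKFB3 was the member that passed the test between media, and PFKFB2 lay in the opposite direction. PFKFB3 fell in DMEM to 0.373 of its mean in RPMI, PFKFB2 was 1.89 times as high there, and PFKFB2 passed once the replicate number was used as a block. PFKFB4, PFKP and PFKL were lower in DMEM without passing, and PFKM, PFKFB1, TIGAR and FBP2 had small or imprecise differences. Of the 9 tested members 1 passed, as a lower gene, where 1.36% of all genes passed (0.292% higher and 1.07% lower). With the block 1 member passed as higher and 1 as lower, where 4.78% of all genes passed (1.36% higher and 3.42% lower). DESeq2 called 5 of the 9, where it called 7.52% of all genes. The 3 libraries of each medium did not overlap for 5 of the 9, 1 higher (PFKFB2) and 4 lower (PFKL, PFKP, PFKFB3 and PFKFB4) in DMEM. The same held for 25.6% of all genes tested, 12.8% in each direction. The 9 tested members had a median log2 fold change of -0.58, and all genes tested had one of 0.01. That family median is the value of FBP2, a gene with 8 to 23 counts per library. PFKL, PFKP, PFKFB3 and PFKFB4 lay below it (-1.44 to -0.72), and PFKFB1, TIGAR, PFKM and PFKFB2 above it (0.05 to 0.92).

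**Figure D1:**
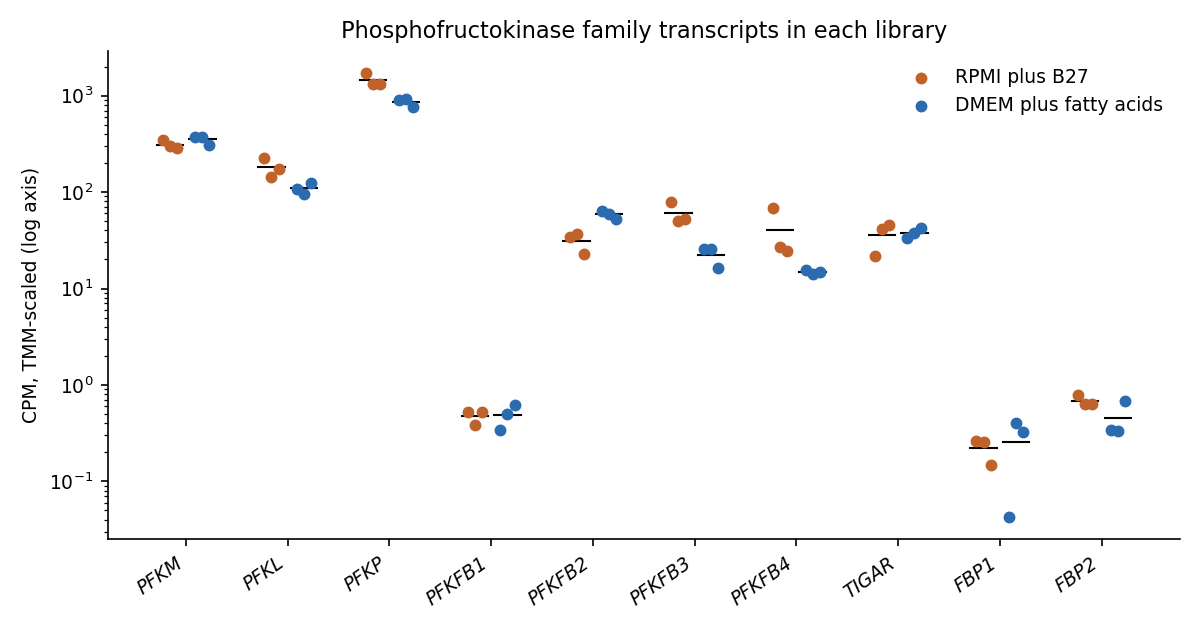
Level of each of the 10 genes in each library, in CPM scaled by TMM on a log axis, with 3 points for RPMI (brown) and 3 for DMEM (blue) and the mean of each as a bar. PFKP lies at 755.9 to 1718.4 CPM, while PFKFB1, FBP1 and FBP2 lie under 1 CPM in every library.

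Among the phosphofructokinase subunits, PFKP (the platelet-type subunit, chromosome 10, GRCh38 positions 3067548 to 3136805) was the most abundant. It had 1718.4, 1326.4 and 1314.3 CPM in RPMI (replicates 1 to 3) and 894.1, 915.6 and 755.9 CPM in DMEM. Every DMEM library lay under every RPMI library. The log2 fold change was -0.76 ± 0.17 (SE), with an adjusted p of 0.0835 (edgeR quasi-likelihood test).

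PFKL (the liver-type subunit, chromosome 21, 44300053 to 44327373) had 225.2, 143.4 and 171.4 CPM in RPMI and 107.9, 96.2 and 124.2 CPM in DMEM. Its groups did not overlap either, although the gap between the lowest RPMI library and the highest DMEM library was narrow. The log2 fold change was -0.72 ± 0.19 (SE) with an adjusted p of 0.118 by edgeR. PFKM (the muscle-type subunit, chromosome 12, 48105353 to 48146404) had 343.1, 297.3 and 288.2 CPM against 370.8, 374.7 and 307.1 CPM. It was higher in DMEM in each of the 3 replicate numbers, but the groups overlapped, and its log2 fold change of 0.18 ± 0.14 (SE) did not pass (adjusted p 0.537, edgeR).

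The make-up of the phosphofructokinase pool was compared as shares of counts within each library. PFKM took 15%, 16.82% and 16.24% of all phosphofructokinase counts in the RPMI libraries and 27.01%, 27.02% and 25.86% in the DMEM libraries. The mean share was 10.61 percentage points higher in DMEM, going from 16.02 ± 0.93% to 26.63 ± 0.66% (SD, n = 3 each, exact two-sided permutation p 0.1, the smallest that 3 against 3 libraries allow, and 0.14 adjusted over 7 shares). PFKP went the other way, from 74.77 ± 0.59% to 64.95 ± 1.19% (SD, n = 3 each, exact permutation p 0.1, 0.14 adjusted). PFKL kept a share of 6.94% to 10.5% in the 6 libraries, with overlapping groups (difference of -0.79 points, exact permutation p 0.6, and -1.81 to -0.05 points when 1 library was left out). The spread of PFKM and PFKP shares within a medium was thus smaller than the difference between media. The 95% Wilson interval of a single share, which covers counting error only, was at most 1.1 points wide.

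Shares of counts favour long transcripts, so levels of different subunits were also set on a per-length scale, as CPM per kilobase of merged exons in GENCODE 29. On that scale PFKP had 300.5 ± 47.5 in RPMI and 176.8 ± 17.9 in DMEM, PFKM had 42.3 ± 4.02 and 47.9 ± 5.19, and PFKL had 20.2 ± 4.66 and 12.3 ± 1.57 (SD, n = 3 each). The order PFKP, PFKM, PFKL was the same in every library. With per-length values the mean PFKM share was 11.7% in RPMI and 20.2% in DMEM, and the PFKP share was 82.8% and 74.6%. The platelet type was thus the main phosphofructokinase transcript in both media, above the muscle type.

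The summed phosphofructokinase level was 2286.6, 1767.0 and 1774.0 CPM in RPMI and 1372.8, 1386.6 and 1187.2 CPM in DMEM, without overlap. The difference of the mean log2 level was -0.56 (exact permutation p 0.1, 0.3 adjusted over 3 sums). The highest sum, in RPMI replicate 1, belonged to the library with the highest summed fibroblast and stromal markers (15319.6 CPM, against 8224.2 and 7340.4 CPM in replicates 2 and 3). The part of those cells in the PFKP and PFKL differences was not tested. Without that library the log2 fold changes were -0.63 for PFKP and -0.53 for PFKL.

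**Figure D2:**
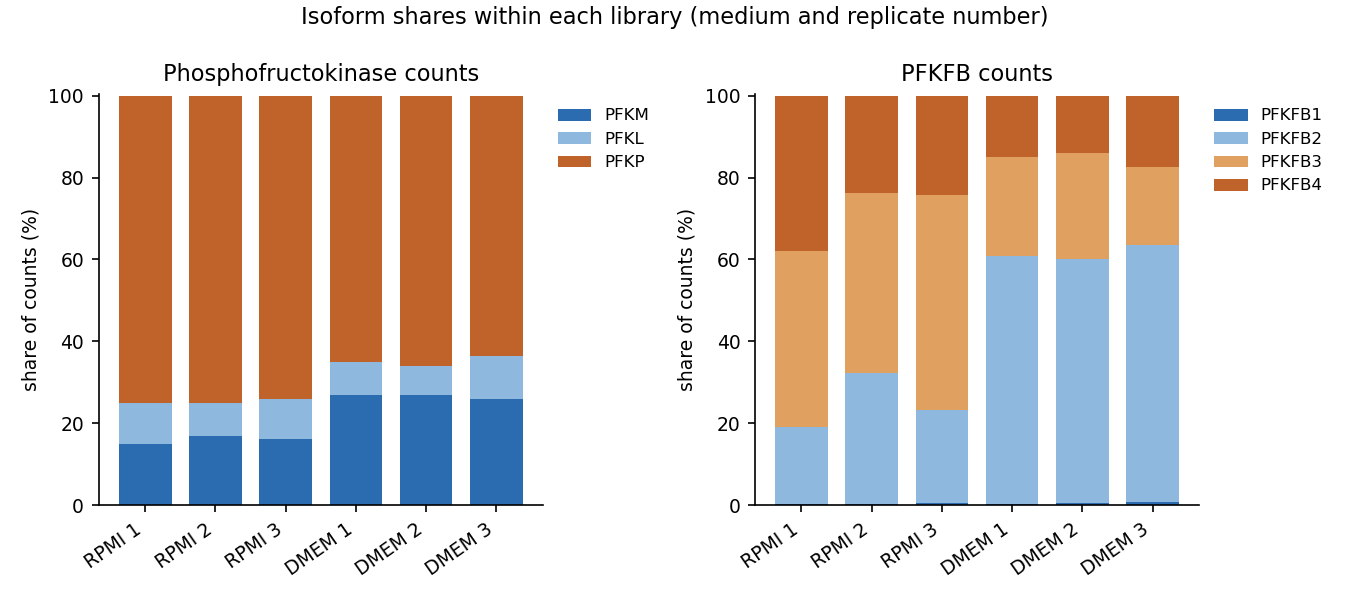
Stacked bars give the share of counts, in percent, of each subunit within the phosphofructokinase counts (left) and of each isoenzyme within the PFKFB counts (right), 1 bar per library. PFKM takes 15% to 16.82% in RPMI and 25.86% to 27.02% in DMEM, and PFKFB2 takes 18.8% to 31.8% and 59.6% to 62.7%.

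Turning to the enzymes of fructose-2,6-bisphosphate, PFKFB3 (chromosome 10, 6144921 to 6326637) is the isoenzyme with the highest kinase over bisphosphatase activity. It had 78.4, 50.4 and 52.4 CPM in RPMI and 25.4, 25.9 and 16.2 CPM in DMEM. The lowest RPMI library was well above the highest DMEM library. PFKFB3 fell by 1.43 on the log2 scale, ± 0.25 (SE), with an adjusted p of 0.0471 (edgeR quasi-likelihood test), and it was lower in all 3 replicate numbers. The call lay close to the threshold: all 6 fits without 1 library lost it (adjusted p 0.0701 to 0.123, log2 fold change -1.54 to -1.19), and with a filter of 10 counts in each library the adjusted p was 0.0562.

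PFKFB2 (chromosome 1, 207034416 to 207081027), the isoenzyme of heart, had 34.1, 36.4 and 22.8 CPM in RPMI and 63.2, 59.7 and 53.1 CPM in DMEM. All DMEM libraries lay above all RPMI libraries, and replicate 3 was the lowest in each medium. The log2 fold change was 0.92 ± 0.19 (SE) with an adjusted p of 0.0732, and 0.94 ± 0.13 with an adjusted p of 0.0236 when the replicate number was a block (edgeR). Over 13 alternatives the adjusted p ran from 0.00213 (DESeq2) to 0.213 (edgeR without DMEM replicate 2), and the lowest by edgeR was that with the block.

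PFKFB4 (chromosome 3, 48517684 to 48563136), best known from testis and tumours, had 68.9, 27.1 and 24.2 CPM in RPMI and 15.7, 14.0 and 14.7 CPM in DMEM. The groups did not overlap, but RPMI replicate 1 stood far above the other 2 libraries of its medium. The log2 fold change of -1.44 ± 0.39 (SE) had an adjusted p of 0.127 (edgeR), and it was -0.79 without that library (adjusted p 0.0874). The same RPMI library was the highest for PFKFB3, for which the log2 fold change was -1.19 without it, and the highest in fibroblast and stromal markers. The part of stromal cells in the PFKFB3 and PFKFB4 differences was not tested. PFKFB1 (chromosome X, 54932961 to 54998789), the isoenzyme of liver and skeletal muscle, was near the limit of detection, with 8 to 21 counts or 0.344 to 0.622 CPM per library. Its log2 fold change of 0.05 ± 0.37 (SE, adjusted p 0.960, edgeR) leaves a difference in either direction possible.

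**Figure D3:**
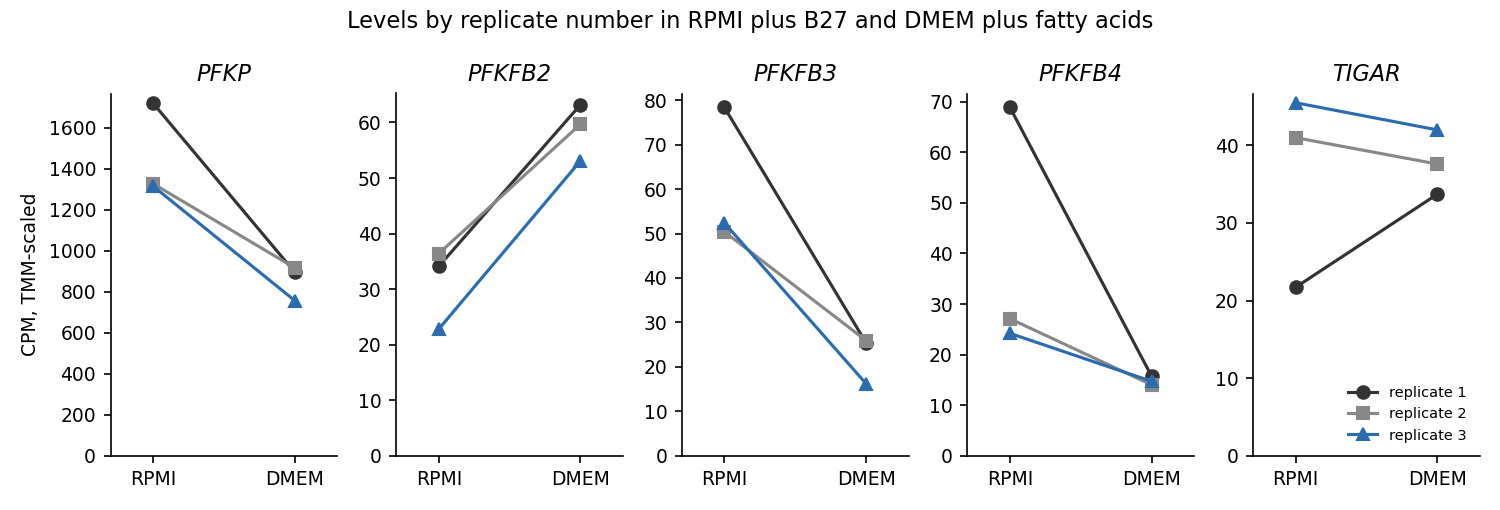
CPM of 5 members (vertical axis from 0) in RPMI and DMEM, with lines joining libraries of the same replicate number. PFKP, PFKFB3 and PFKFB4 are lower and PFKFB2 is higher in DMEM on all 3 lines, while TIGAR goes from 21.7 to 33.7 CPM for replicate 1 and down for replicates 2 and 3.

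The opposite directions of PFKFB2 and PFKFB3 were compared directly as a ratio within each library, which needs no scaling between libraries. There were 2.30, 1.39 and 2.30 PFKFB3 counts per PFKFB2 count in RPMI and 0.401, 0.434 and 0.306 in DMEM, so that PFKFB3 counts were the more frequent in every RPMI library and PFKFB2 counts in every DMEM library. The log2 ratio was 0.96 ± 0.42 in RPMI and -1.41 ± 0.27 in DMEM (SD, n = 3 each), a difference of -2.37 (exact permutation p 0.1, the smallest possible, and exact sign-flip p 0.25 within the 3 pairs, also the smallest possible). The difference within pairs was -2.52, -1.68 and -2.91 for replicates 1 to 3. Leaving out any 1 library gave -2.61 to -2.22.

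Within all PFKFB counts, PFKFB2 made up 18.8%, 31.8% and 22.8% in RPMI and 60.4%, 59.6% and 62.7% in DMEM. Its mean share was 24.48 ± 6.69% and 60.92 ± 1.60%, a difference of 36.44 percentage points (SD, n = 3 each, exact permutation p 0.1, 0.14 adjusted over 7 shares). PFKFB3 made up 46.54 ± 5.12% and 23.09 ± 3.50%, and PFKFB4 28.60 ± 8.03% and 15.46 ± 1.74% (SD, n = 3 each, exact permutation p 0.1 and 0.14 adjusted for both). The PFKFB4 difference of -13.13 points was -8.50 points without RPMI replicate 1. PFKFB1 was under 1% in each library. The 95% Wilson interval of a single share was at most 3.8 points wide. Per kilobase of merged exons the PFKFB2 share was 16.2% in RPMI and 47.7% in DMEM, because its merged exons are the longest of the family (10197 bases, against 6114 for PFKFB3 and 6107 for PFKFB4).

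The PFKFB sum had 181.9, 114.3 and 99.9 CPM in RPMI and 104.6, 100.2 and 84.7 CPM in DMEM. These groups overlapped (difference of the mean log2 level -0.41, exact permutation p 0.3, 0.4 adjusted over 3 sums), and the difference was -0.15 without RPMI replicate 1. The phosphofructokinase sum was over 10 times the PFKFB sum in every library on this scale of counts.

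**Figure D4:**
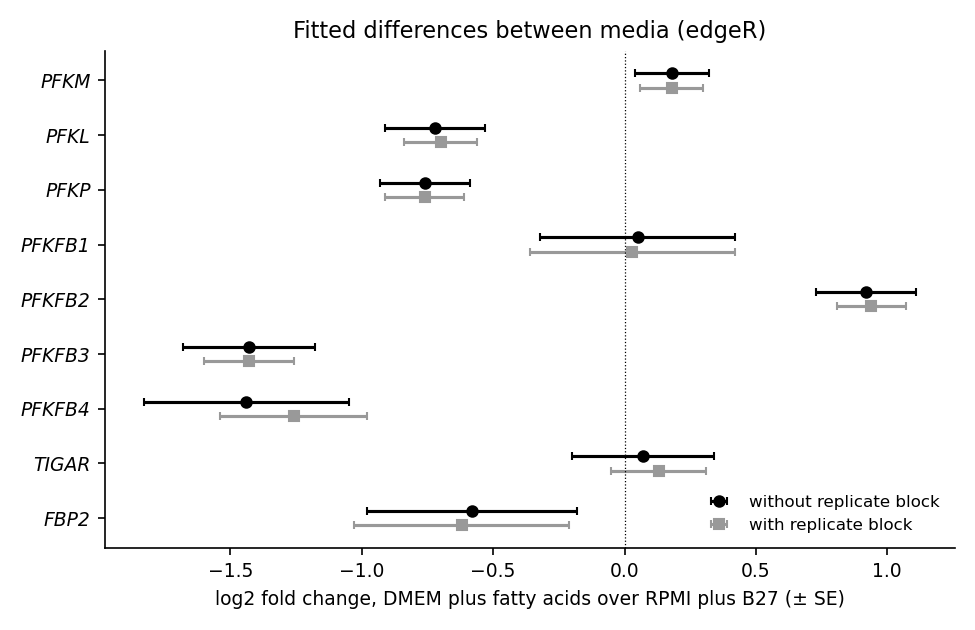
Fitted log2 fold change (DMEM over RPMI) of the 9 tested members with its standard error as bars, from edgeR without the replicate block (black circles) and with it (grey squares). PFKFB3 and PFKFB4 lie at -1.43 and -1.44 without the block, PFKFB2 at 0.92, and PFKM, PFKFB1 and TIGAR near 0.

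Because PFKFB3 and PFKFB4 are background examples of oxygen-regulated genes and both lay lower in DMEM, the 250 bases before annotated starts of these genes (RefSeq, GRCh38.p14) are shown 5′ to 3′ on the gene's strand. Capitals mark ACGTG and GCGTG, the core letters of the hypoxia response element, found on either strand. The windows are PFKFB3 start 1 (chr10:6144671-6144920, + strand), PFKFB3 start 2 (chr10:6202682-6202931, + strand) and PFKFB4 (chr3:48556804-48557053, - strand).
PFKFB3 start 1: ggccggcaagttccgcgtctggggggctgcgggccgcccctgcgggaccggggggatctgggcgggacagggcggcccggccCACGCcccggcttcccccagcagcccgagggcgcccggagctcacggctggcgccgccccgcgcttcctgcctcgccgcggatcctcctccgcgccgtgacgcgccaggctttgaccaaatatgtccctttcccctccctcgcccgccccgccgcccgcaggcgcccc
PFKFB3 start 2: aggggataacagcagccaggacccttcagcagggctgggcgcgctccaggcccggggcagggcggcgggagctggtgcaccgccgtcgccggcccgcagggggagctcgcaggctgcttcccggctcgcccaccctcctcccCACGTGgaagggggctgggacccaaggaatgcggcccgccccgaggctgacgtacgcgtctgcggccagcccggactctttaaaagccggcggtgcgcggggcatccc
PFKFB4: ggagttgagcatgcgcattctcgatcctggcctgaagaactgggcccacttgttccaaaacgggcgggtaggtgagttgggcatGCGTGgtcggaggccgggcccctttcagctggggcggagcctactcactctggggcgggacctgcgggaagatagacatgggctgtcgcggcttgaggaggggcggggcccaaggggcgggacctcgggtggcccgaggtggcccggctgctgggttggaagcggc

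PFKFB3 start 2 holds CACGTG, an E-box whose letters contain ACGTG on both strands, 108 bases before the start. PFKFB3 start 1 and PFKFB4 each hold GCGTG once, on the reverse and the forward strand. Such letters are frequent: ACGTG occurred on either strand in 18.5% of all 35116 windows of this length in the table, GCGTG in 32.2%, either of these in 43.2%, and CACGTG in 6.3%. Of the 20 windows of the members, several of which overlap, 9 held ACGTG or GCGTG, and these belonged to 7 of the 9 members with a window. They included TIGAR and PFKM, which did not pass. Gene counts do not say which start was used. The PFKFB2 promoter is not shown.

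TIGAR (chromosome 12, 4321213 to 4360028) had 21.7, 41.0 and 45.5 CPM in RPMI and 33.7, 37.6 and 42.0 CPM in DMEM. The groups overlapped, and replicate 1 was the lowest and replicate 3 the highest in both media. The log2 fold change was 0.07 ± 0.27 (SE, adjusted p 0.918, edgeR), and it was -0.20 without RPMI replicate 1. Where PFKFB2 and PFKFB3 differed by medium, TIGAR varied more with the replicate than with the medium.

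The fructose-1,6-bisphosphatases were close to the limit of detection. FBP2 (the muscle-type enzyme, chromosome 9, 94558720 to 94593824) had 21, 15 and 17 counts in RPMI and 8, 10 and 23 in DMEM, or 0.334 to 0.791 CPM, and its log2 fold change of -0.58 ± 0.40 (SE) did not pass (adjusted p 0.496, edgeR). FBP1 (the liver-type enzyme, chromosome 9, 94603133 to 94640263) had 7, 6 and 4 counts against 1, 12 and 11, which is too few for the test. Their sum was 0.388 to 1.05 CPM per library (difference of the mean log2 level -0.45, exact permutation p 0.4, -0.07 without DMEM replicate 1 and -0.76 without DMEM replicate 3). The non-coding gene PCAT7 lies antisense over 16.3% of the FBP1 exons and 16.2% of the FBP2 exons and had 156 to 267 counts per library, so single counts of either gene are uncertain where the strand setting is not given. Of the marker lists of cells that use these enzymes, hepatocyte and foregut markers summed to 15.5 to 314.3 CPM in RPMI and 7.79 to 50.8 CPM in DMEM, and macrophage markers to 1.10 to 2.87 CPM over all 6 libraries. The 10 skeletal muscle markers summed to 563.4 to 1169.3 CPM in RPMI and 679.5 to 1023.6 CPM in DMEM, mostly from CKM (411.8 to 919.4 CPM) and ACTA1 (16.7 to 648.6 CPM), which heart muscle also expresses, while MYOD1, MYF5 and PAX7 were at 0 in every library. A count of 0 allows up to 3 counts in a library.

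Ordered by level per kilobase of merged exons in RPMI, PFKFB3 (9.88 ± 2.55), TIGAR (8.98 ± 3.15) and PFKFB4 (6.56 ± 4.09) followed PFKL, with overlapping ranges among these 3, and PFKFB2 (3.05 ± 0.713) came next, under all of them. In DMEM the order after PFKL was TIGAR (9.40 ± 1.03), PFKFB2 (5.76 ± 0.501), PFKFB3 (3.68 ± 0.888) and PFKFB4 (2.43 ± 0.140), and no 2 of these neighbours overlapped. FBP2, PFKFB1 and FBP1 came last in both media, at 0.128 to 0.527 as group means, with overlapping neighbours in DMEM only. PFKFB2 thus stood below PFKFB3 and PFKFB4 in RPMI and above them in DMEM. With the longest coding transcript as the length, PFKFB4 (11.2) stood above TIGAR (9.92) in RPMI, and the order of the other members named in this comparison was the same.

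For the other enzymes of glycolysis, 15 of 19 listed genes were tested, 13 had a negative log2 fold change, and the median was -0.61, against 0.01 over all genes tested. In edgeR without the block 0 of the 15 passed, although 9 had an unadjusted p under 0.05 and DESeq2 called 9, all lower. With the block 6 passed, all lower, and the media did not overlap for 8 of the 15, all lower. Over all genes tested 1.36% passed without the block, 17.7% had an unadjusted p under 0.05 and DESeq2 called 7.52%. With the block 4.78% passed (3.42% lower), and the media did not overlap for 25.6% (12.8% lower). The summed level of the list was 17869.5, 13351.3 and 11749.6 CPM in RPMI and 9724.7, 8923.7 and 8379.3 CPM in DMEM. RPMI replicate 1 was thus the highest here too, as it was in fibroblast and stromal markers, whose part in these differences was not tested. Without that library the median was -0.55, with 0 passing, where 30 passed over all genes. The smallest p values were those of PGK1 (phosphoglycerate kinase, 947.2 ± 326.7 to 400.0 ± 80.3 CPM, log2 fold change -1.24 ± 0.27, adjusted p 0.0808, and 0.0175 with the block) and PGAM1 (phosphoglycerate mutase, -0.55 ± 0.12, adjusted p 0.0825, edgeR).

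The list of hypoxia-inducible factor subunits, oxygen sensors and non-glycolytic targets had a median of -0.62 on the log2 scale, and 15 of its 18 tested genes were negative. Of these 18, 2 passed, both lower: BNIP3, a mitophagy receptor (-2.04 ± 0.32, adjusted p 0.0402), and P4HA2, a collagen prolyl hydroxylase (-1.08 ± 0.19, adjusted p 0.0480, edgeR). With the block 7 passed, all lower. Over all genes tested 1.36% passed without the block (1.07% lower) and 4.78% with it (3.42% lower). Without RPMI replicate 1 the count was 0 and the median -0.48, while the count over all genes went from 219 to 30. Of the 18, 12 had an unadjusted p under 0.05 (17.7% of all genes) and DESeq2 called 8, all lower (7.52% of all genes). The media did not overlap for 10, all lower, against 25.6% of all genes (12.8% lower). The summed level of this list was 3219.4, 2622.6 and 2299.7 CPM in RPMI, highest in the same replicate 1 library that was highest for PFKFB3 and PFKFB4, and 2157.6, 1959.0 and 1730.9 CPM in DMEM.

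Pentose phosphate genes, of the branch that leaves glycolysis at glucose-6-phosphate, and gluconeogenic enzymes had positive medians. Pentose phosphate genes had a median of 0.18 (6 of 8 positive, with 0 passing in either edgeR fit or in DESeq2 and 1 at an unadjusted p under 0.05). The smallest p values were those of PGD (0.34 ± 0.12, adjusted p 0.205) and PGLS (0.31 ± 0.13, adjusted p 0.283, edgeR), and the fold changes of the list ran from -0.41 to 0.35. Other gluconeogenic enzymes had a median of 0.20 (4 of 4 tested genes positive, 0 passing in edgeR, 1 at an unadjusted p under 0.05 and 1 called by DESeq2), in which PCK2, the mitochondrial phosphoenolpyruvate carboxykinase, went from 6.44 ± 2.65 to 30.1 ± 12.6 CPM (2.22 ± 0.42, adjusted p 0.0583, and 0.0131 with the block, edgeR). PCK1 was under 0.1 CPM in both media. Of all genes tested, 1.36% passed without the block and 4.78% with it, 17.7% had an unadjusted p under 0.05, and DESeq2 called 7.52%.

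Kinases known to phosphorylate PFKFB isoenzymes (subunits of AMP-activated protein kinase and protein kinase A, and others) had a median of -0.01, with 7 of 15 positive and 0 passing in either edgeR fit, 2 at an unadjusted p under 0.05 and 1 called by DESeq2, as lower. Among these kinases PRKAA1, a catalytic subunit of AMP-activated protein kinase, had a log2 fold change of 0.31 ± 0.12 (SE, adjusted p 0.235, edgeR). PRKAA1 was not the gene that DESeq2 called. The p53 target genes, listed beside TIGAR, had a median of 0.25 with 9 of 12 positive. In edgeR 0 passed, 2 had an unadjusted p under 0.05, DESeq2 called 2, and 1 passed with the block, TP53INP1 (0.50 ± 0.10, adjusted p 0.0735 and 0.0486 with the block). SESN2 followed at 0.80 ± 0.20 (adjusted p 0.108, edgeR). Of all genes tested, 1.36% passed without the block and 4.78% with it, 17.7% had an unadjusted p under 0.05, and DESeq2 called 7.52%.

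**Figure D5:**
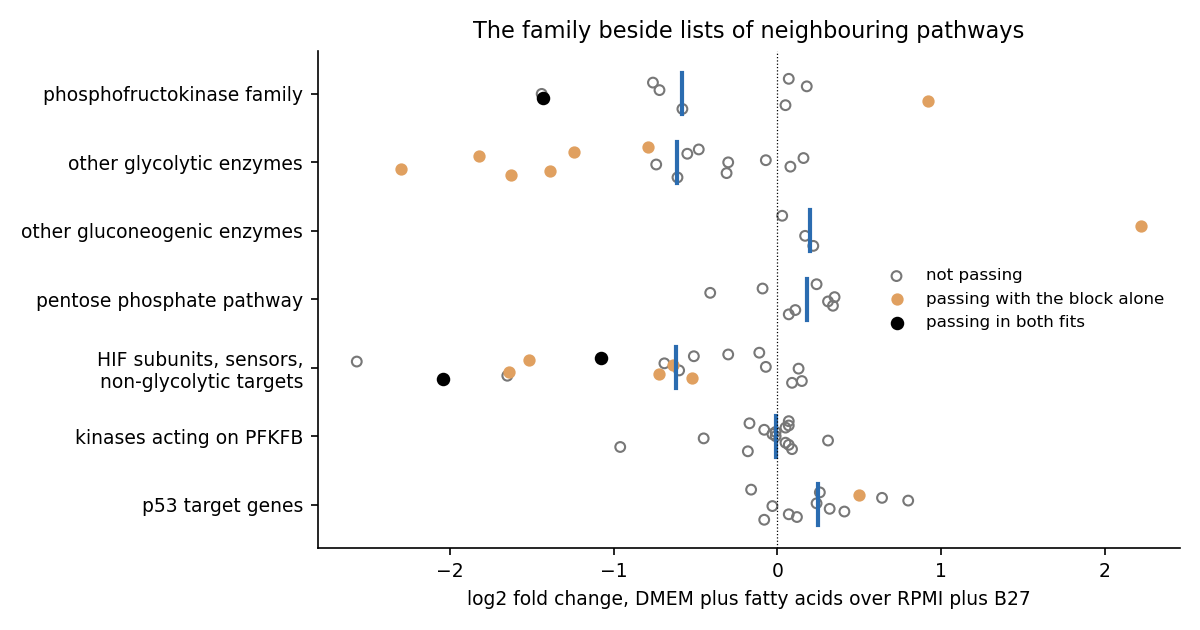
Log2 fold change of each tested gene (DMEM over RPMI) in the family and in 6 lists of neighbouring pathways, with the median of each as a blue bar, genes passing in both edgeR fits in black and those passing with the block alone in orange. The medians of the family, of other glycolytic enzymes and of the hypoxia list lie at -0.58, -0.61 and -0.62, and those of the other lists between -0.01 and 0.25. The family median is the value of FBP2, which had 8 to 23 counts per library, and the members lie on both sides of 0.

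Exons of some members overlap those of other genes in GENCODE 29, and reads there may have been set aside or misassigned. SENP1 overlaps 8.6% of the PFKM exons and YOD1 3.1% of the PFKFB2 exons, both on the opposite strand, and UCN2 overlaps 4.7% of the PFKFB4 exons on the same strand. The same-strand gene AC008012.1, which is not among the listed symbols, overlaps 42.6% of the TIGAR exons. UCN2 had 9 to 40 counts per library against 365 to 1828 for PFKFB4.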

How the data were processed

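Libraries were strand-specific and made from mRNA, per the labels' protocols. The authors deposited raw read counts by gene symbol for each library, neither normalized nor pooled. The submitters' processing notes name STAR, HTSeq and hg38, without versions. The annotation and strand setting are not given in the sources used here. Summary rows (reads in no gene, 5.44% to 7.57%, ambiguous, 3.90% to 4.15%, or aligned to several places, 3.05% to 4.10%) were left out.

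The test was that of edgeR 4.0.16 (R 4.3.3) on the counts (filterByExpr with minimum count 10 and total 15, TMM, quasi-likelihood fit of medium over all 6 libraries, fold changes as DMEM over RPMI, Benjamini-Hochberg over 16107 genes, threshold 0.05). Standard errors are the log2 fold change over the root of F. The labels call the replicates biological without naming the cultures they came from, so p values measure the spread between these samples. Shares and sums were compared by exact permutation. Deviations from the mean of the medium correlated at 0.313, 0.428 and 0.365 for libraries of equal replicate number and at -0.242 to -0.136 for the others. The replicate numbers were therefore treated as pairs in the block fit and in the sign-flip tests. The main edgeR fit and the exact permutation tests were unpaired. Alternatives were RLE or total-count scaling, other filters, robust dispersion, the replicate block, DESeq2 1.42.0 and leaving out each library. Scripts were tested on simulated data.

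The members, the 6 pathway lists and the 9 marker lists were chosen with earlier results of these data known. Named are all members, up to 2 genes with the smallest p of a list, markers at 0, and for PFKFB2 and PFKFB3 the 3 genes most correlated with each. Of the genes this rule takes, 1 is not reported here. Of the marker lists not described in the report, endothelial markers had 0 of 3 tested genes passing (2 at an unadjusted p under 0.05 and 2 by DESeq2, both lower) and summed to 37.5 to 463.8 CPM. That sum was mostly KDR (27.5 to 463.2 CPM), while PECAM1 reached at most 0.213 CPM and CDH5 at most 0.414 CPM in a library. Pluripotent cell markers had 0 of 3 passing by any of these tests and summed to 1.00 to 2.86 CPM. Smooth muscle and epicardial markers had 2 of 8 and 1 of 6 passing, all lower, skeletal muscle markers 0 of 4 (2 at an unadjusted p under 0.05 and 2 by DESeq2), and hepatocyte and macrophage markers 0 of 5 and 0 of 2 (0 also by an unadjusted p and by DESeq2). With the block smooth muscle markers had 4 of 8 passing and epicardial markers 4 of 6, all lower, and hepatocyte markers 2 of 5, both lower. Endothelial markers had 1 higher and 1 lower of 3, skeletal muscle markers 1 higher of 4, and macrophage and pluripotent cell markers 0. Of all genes tested, 1.36% passed without the block and 4.78% with it (3.42% lower). An unadjusted p under 0.05 held for 17.7% of all genes, and DESeq2 called 7.52%.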

Additional observations from a re-analysis of the deposited data

How the results depend on the processing

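The count of 219 genes past the threshold was 539 without a filter, 119 with a filter of 10 counts in each library, 770 with the replicate block, 1212 by DESeq2, and 3 to 131 when 1 library was left out. Leaving out 1 library gave 30, 4 and 131 genes for RPMI replicates 1 to 3 and 11, 12 and 3 for DMEM. Total-count scaling moved the all-gene median (log2 fold change) from 0.01 to 0.12, and no member changed direction under it. DESeq2 called PFKL (adjusted p 0.0180), PFKP (0.000941), PFKFB2 (0.00213), PFKFB3 (2.42e-05) and PFKFB4 (0.00746), and the fit without a filter PFKP (0.0450) and PFKFB2 (0.0257). Without 1 library the log2 fold change of TIGAR ran from -0.20 to 0.27 and that of PFKFB1 from -0.16 to 0.23, changing sign in each case, and the cause was not tested. With the replicate block 6 other glycolytic genes, 1 gluconeogenic gene, 7 hypoxia genes and 1 p53 target passed, and without RPMI replicate 1 the hypoxia list had 0. The block changed no other call of a member than that of PFKFB2.

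Per kilobase of merged exons, a length scale added after seeing the data, the difference between media was 8.48 points for the PFKM share, -8.20 for PFKP, 0.77 for PFKFB1 and 31.43 for PFKFB2. Per kilobase of the longest coding transcript it was 9.72 for PFKM, 0.57 for PFKFB1 and 31.11 for PFKFB2. When 1 library was left out, differences that moved by over 1.5 times were those of the PFKFB4 share (-15.57 to -8.50 points), the PFKL share (-1.81 to -0.05), the PFKFB1 share (0.03 to 0.24), the PFKFB sum (-0.58 to -0.15, log2) and the fructose-1,6-bisphosphatase sum (-0.76 to -0.07), with no change of sign. Coding lengths from a protein table were not used here. With 0.0296 to 0.0431 CPM per count, PFKFB1, FBP1 and FBP2 rest on 1 to 23 counts per library.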

Other observations

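TIGAR and the summed level of the p53 target list ranked the replicate numbers alike in both media. The summed level of the 12 p53 target genes was 969.6, 1297.8 and 1386.4 CPM in RPMI and 1174.7, 1444.9 and 1473.7 CPM in DMEM, so that replicate 1 was lowest and replicate 3 highest in each medium, as for TIGAR. CDKN1A made up a large part of that sum (430.0, 632.5 and 674.7 CPM in RPMI, 477.1, 670.9 and 669.9 CPM in DMEM). Single genes of the list did not all follow this order. SESN2, for example, was highest in replicate 1 in DMEM (111.6, 82.9 and 88.6 CPM). The likeness of TIGAR and the sum was noticed after the values were seen and was not tested.

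The genes whose log2 CPM followed PFKFB3 most closely over the 6 libraries, among 10021 genes whose mean reached 10 CPM, were GNA13 (Pearson's r 0.997), NSRP1 (0.996) and ENTPD4 (0.994). Their differences between media were small, with log2 fold changes of -0.21, -0.17 and -0.49, none of which passed (adjusted p 0.323, 0.493 and 0.129, edgeR). For PFKFB2 they were HHATL (r 0.990, 22.4 ± 8.87 to 57.3 ± 8.30 CPM, log2 fold change 1.36, adjusted p 0.0829, edgeR), RAB28 (r 0.987) and HAX1 (r 0.983). RAB28 and HAX1 also differed little between media, with log2 fold changes of 0.27 and 0.19 (adjusted p 0.357 and 0.361, edgeR). These correlations describe 6 libraries that share the medium and the replicate number.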
